A study of Mus musculus with 5 samples.

Results

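The genes described here encode the nuclear subunits of the mitochondrial respiratory chain and of the ATP synthase. They were chosen by symbol alone: rows of the table starting with Nduf, Uqcr, Cox4 to Cox8 or Atp5, and the rows Sdha, Sdhb, Sdhc and Sdhd. This gave 92 of 34240 features, of which 83 name subunits (36 of complex I, 4 of complex II, 8 of complex III, 19 of complex IV and 16 of complex V) and 9 name something else. Values were compared between 5 libraries of sorted cells from BALB/c mice aged 10 to 12 months. Normal cells, sorted from bone marrow for the myeloid surface antigens Gr1 and Mac1, gave 3 libraries. Acute myeloid leukaemia (AML) cells, sorted for Mac, Gr1 and B220 from bone marrow and spleen, gave 2 libraries. The leukaemia had been induced by CNTRL-FGFR1, which joins part of centriolin, a centrosome protein, to the tyrosine kinase of the growth factor receptor FGFR1. The labels state neither the promoter or vector of the fusion nor that libraries came from different animals, so every p-value here reflects the spread of these libraries alone, which can be technical. Values per library are given in the order normal library 1, 2 and 3, then AML library 1 and 2. Spleen and the B220 gate belong to the AML group alone and cannot be told apart from it.

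The respiratory chain is a set of protein complexes in the inner mitochondrial membrane that pass electrons from nutrients to oxygen. Complexes I (NADH dehydrogenase), III (the cytochrome bc1 complex) and IV (cytochrome c oxidase) pump protons as they do so, complex II (succinate dehydrogenase) feeds electrons in from the citrate cycle without pumping, and complex V uses the proton gradient to make ATP. A few core subunits of complexes I, III, IV and V are encoded by mitochondrial DNA and were not analysed here. Mature neutrophils, the main bone marrow cells with both sorting antigens, are known for few mitochondria and a reliance on glycolysis, while their dividing precursors have more.

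Values are RPKM, read numbers scaled to exon length and to the library's mapped reads, a unit inferred from the table. RPKM totals ran from 472234 to 615921 in the normal and from 524000 to 638584 in the AML libraries, and the table holds no counts, so no counting error is given. Itgam and Ly6g, which encode a Mac1 chain and part of the Gr1 epitope, were transcribed in every library (at least 169.0 and 482 RPKM), and both were called lower in AML cells. Ptprc, whose B220 form was used to sort the AML cells, was at 258, 262 and 164 RPKM in normal and 71.7 and 77.7 RPKM in AML cells, and the B cell markers Ms4a1, Ebf1 and Pax5 did not reach the filter used below. The libraries differed in other markers too. All 6 early granulocytic markers, such as Elane, were called higher in AML cells, with summed values of 277 to 393 in normal and 9774 and 10800.0 RPKM in AML libraries. Of 8 late neutrophil markers 6 were called lower, as were 7 of 8 monocyte and macrophage markers. Markers of cycling cells were mixed, with 3 of 7 called higher and 2 lower. Of T and NK cell markers, Cd3e, Cd3g, Thy1 and Nkg7 were called higher (Cd3e at 0.19, 0.20 and 0.56 RPKM in normal and 233 and 205 RPKM in AML cells) and Cd3d lower (at 42.0, 45.5 and 38.4 RPKM in normal and 16.5 and 17.2 RPKM in AML cells). The markers Cd2, Lck, Cd8a and Cd4 did not reach that filter. Normal library 3 stood apart within its group: eosinophil markers summed to 755, 775 and 6.44 RPKM and erythroid markers to 1506, 968 and 105 RPKM in normal libraries 1 to 3. In AML libraries 1 and 2 the sums were 106 and 211 RPKM for eosinophil and 115 and 125 RPKM for erythroid markers. The part of these markers in the results below was not tested, and in bulk RNA fewer cells of a type and less RNA per cell cannot be told apart.

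The subunit genes of complexes I, III, IV and V had higher summed levels in both AML libraries than in any normal library, and those of complex II did not. Over all 92 genes the summed RPKM was 3159, 3812 and 5252 in the normal and 6202 and 6780.0 in the AML libraries, a ratio of group means of 1.59. Normal library 3 lay nearest to the AML libraries, and the normal libraries spread over 1071 RPKM (SD, n = 3) around a mean of 4074. Of the 92 genes 84 reached the filter of at least 1 RPKM in 2 libraries. With limma on log2(RPKM + 1), adjusted over all 10166 tested genes, 14 of the 84 were called higher in AML cells and none lower at an adjusted p under 0.05. That is 16.7% higher, against 19.3% of all tested genes, and 0 lower against 11.8% (at an unadjusted p under 0.05, 26 were higher and none lower, where 26.5% and 17.4% of all tested genes were). The share called higher thus lay near the background. The median log2 fold change was 0.59 over the 84 genes and 0.12 over all tested genes, and 90.5% of the members but 55.9% of all tested genes had a value above 0 (76.2% against 45.2% with S100a8 and S100a9 left out of the scaling). The sign went with the number of decimals in the deposited values. Of all tested genes, 11.9% of those with 1 decimal and 94.5% of those with 2 lay above 0, and 79 of the 92 members have 2. The reason was not tested. Both AML libraries lay above every normal library for 38 of the 84 genes (34.8% of all tested genes) and below every normal library for 1 (22.1%). With S100a8 and S100a9 left out of the scaling, 8 members were called higher and 1 lower (9.52% and 1.19%, background 12.5% and 13.4%), and the median of all tested genes moved from 0.12 to -0.10 and that of the members from 0.59 to 0.34. That setting gives every library the same RPKM total over the other genes, whereas the main fit leaves the totals as they are. It therefore does not show the part of S100a8 and S100a9 alone.

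**Figure D1:**
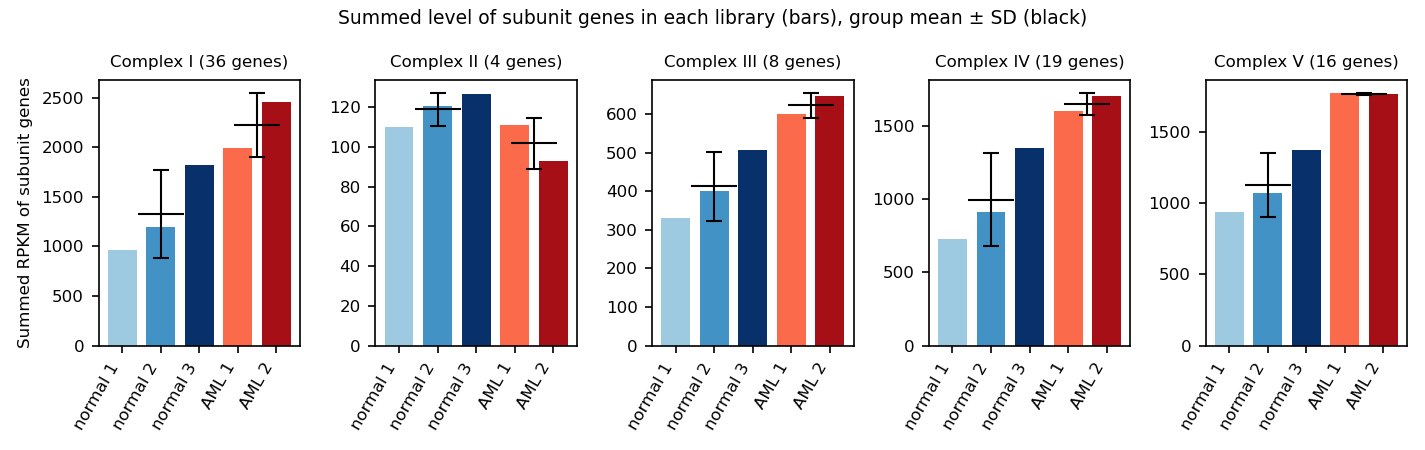
Summed RPKM of the subunit genes of each complex in each library (bars, vertical axis from 0, its own scale for each complex), with the group mean and SD in black (n = 3 normal, n = 2 AML). Sums of complexes I, III, IV and V were highest in the 2 AML libraries and next highest in normal library 3, while complex II had its highest sum, 126 RPKM, in normal library 3 and its lowest, 92.8 RPKM, in AML library 2.

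The counts depended on single libraries. Without normal library 3, 47 of 84 members were called higher (56.0%), against 27.3% of all tested genes in that fit, and none lower against 21.2%. It was 6 without normal library 1 (7.14%, background 11.4%, none lower against 8.01%), 4 without normal library 2 (4.76%, background 9.61%, none lower against 6.44%), 4 without AML library 1 (4.76%, background 7.08%, none lower against 6.18%) and 2 without AML library 2 (2.38%, background 3.33%, none lower against 3.55%). Without both normal libraries 1 and 2 it was 2 (2.38%, background 9.15%, none lower against 4.99%), and the median of the members, 0.17, then lay below that of all tested genes, 0.20. With no filter on low values 8 of 88 genes were called higher (9.09%, background 10.2%) and none lower (background 6.16%). The 14 called genes were among the 47 called without normal library 3. Cox6b2 was the only member called in every one of the 17 alternative fits.

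Complex I, the entry point for electrons from NADH, had 5 of 36 subunits called higher and none lower, against 19.3% and 11.8% of all tested genes. At an unadjusted p under 0.05, 9 were higher and none lower, against 26.5% and 17.4% of all tested genes. Log2 fold changes were above 0 for 35 of 36 complex I subunits, with a median of 0.61. The exception was Ndufs1, and 30 of 36 lay above 0 with S100a8 and S100a9 left out of the scaling, 26 with the length trend removed and 34 with upper quartile scaling or quantile normalization. Its summed RPKM was 968, 1195 and 1824 in the normal and 1997 and 2456 in the AML libraries. The called subunits were Ndufs7, Ndufa6, Ndufv3, Ndufa12 and Ndufb3, the last of them named after its value was seen. Among 7 nuclear-encoded core subunits, which carry the flavin and the iron-sulphur clusters, Ndufs7 alone was called. Ndufs7 (chr10:79711866-79719539, mm9), which holds the cluster nearest to ubiquinone, stood at 14.7, 13.0 and 29.4 RPKM in the 3 normal and 54.6 and 65.9 RPKM in the 2 AML libraries. Both AML values lay above the normal ones, and normal library 3 lay above normal libraries 1 and 2. The ratio of means was 3.17 (log2 fold change 1.70, SE 0.37, limma adjusted p = 0.015).

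The other core subunits did not pass the test. Ndufv1, which binds NADH and the flavin, stood at 12.6, 15.3 and 12.7 RPKM in normal and 22.1 and 16.7 RPKM in AML cells, with a log2 fold change of 0.48 (limma adjusted p = 0.16). Ndufs1, the largest subunit of the electron-input module, was the only complex I gene with a negative value, at 13.7, 14.9 and 10.7 RPKM in normal and 10.4 and 10.9 RPKM in AML cells (log2 fold change -0.26, SE 0.23, limma adjusted p = 0.41). Its AML values lay at the lower end of the normal range, with normal library 3 between them. Log2 fold changes were 0.57 for Ndufs3, 0.65 for Ndufs8 and 0.63 for Ndufv2, with adjusted p-values from 0.12 to 0.20 (limma).

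Accessory subunits of the peripheral arm, the part that reaches into the matrix, had a median of 1.22 over 9 genes, and of 0.69 with the length trend removed. Of these 9 genes 3 were called higher, against 19.3% of all tested genes. Ndufa6, an accessory subunit of the LYR-motif family (chr15:82180569-82184721), stood at 73.3, 102 and 123 RPKM in the 3 normal and 256 and 323 RPKM in the 2 AML libraries. Each AML value was more than the highest normal value, and the ratio of means was 2.91 (log2 fold change 1.55, SE 0.30, limma adjusted p = 0.0097). Ndufv3, a small subunit of the electron-input module (chr17:31657060-31668266), was at 33.2, 39.7 and 52.1 RPKM in normal and 94.0 and 101 RPKM in AML cells (log2 fold change 1.23, SE 0.26, limma adjusted p = 0.014). For Ndufa12 (chr10:93661700-93684188) the values were 10.9, 12.7 and 14.2 RPKM in normal and 26.7 and 34.7 RPKM in AML cells (log2 fold change 1.22, SE 0.24, limma adjusted p = 0.010). The groups did not overlap for any of these genes.

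The membrane arm, which holds the proton-pumping part, had 1 of 19 subunits called higher, against 19.3% of all tested genes. All 19 had a log2 fold change above 0 (median 0.61). This held for 17 with S100a8 and S100a9 left out of the scaling, for 18 with upper quartile scaling or quantile normalization, for 13 with the length trend removed and for 12 without both normal libraries 1 and 2. The called gene was Ndufb3 (chr1:58643228-58652808), at 39.0, 47.4 and 67.7 RPKM in normal and 106 and 105 RPKM in AML cells (log2 fold change 1.06, SE 0.29, limma adjusted p = 0.033). Normal library 3 lay above normal libraries 1 and 2 for all 19. Ndufb7, the complex I gene with the highest mean, shows this: it stood at 88.4, 109.7 and 278 RPKM in the 3 normal and 216 and 333 RPKM in the 2 AML libraries. Its normal library 3 lay above AML library 1, and the gene missed the threshold (log2 fold change 0.94, SE 0.51, limma adjusted p = 0.19). Ndufab1, the mitochondrial acyl carrier protein found in both arms, was low in all libraries, from 2.21 to 4.57 RPKM (log2 fold change 0.46, limma adjusted p = 0.16). Leaving out AML library 2 ended the calls of Ndufa6 and Ndufa12 (adjusted p of 0.090 and 0.093) and of Ndufs7 and Ndufv3 (0.12 and 0.11). Ndufs7 and Ndufv3 also missed the threshold without AML library 1 (0.066 and 0.070) or without normal library 2 (0.054 and 0.068). That of Ndufb3 was lost without any one library other than normal library 3 (normal library 1 0.099, normal library 2 0.12, AML library 1 0.12, AML library 2 0.16; limma).

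**Figure D2:**
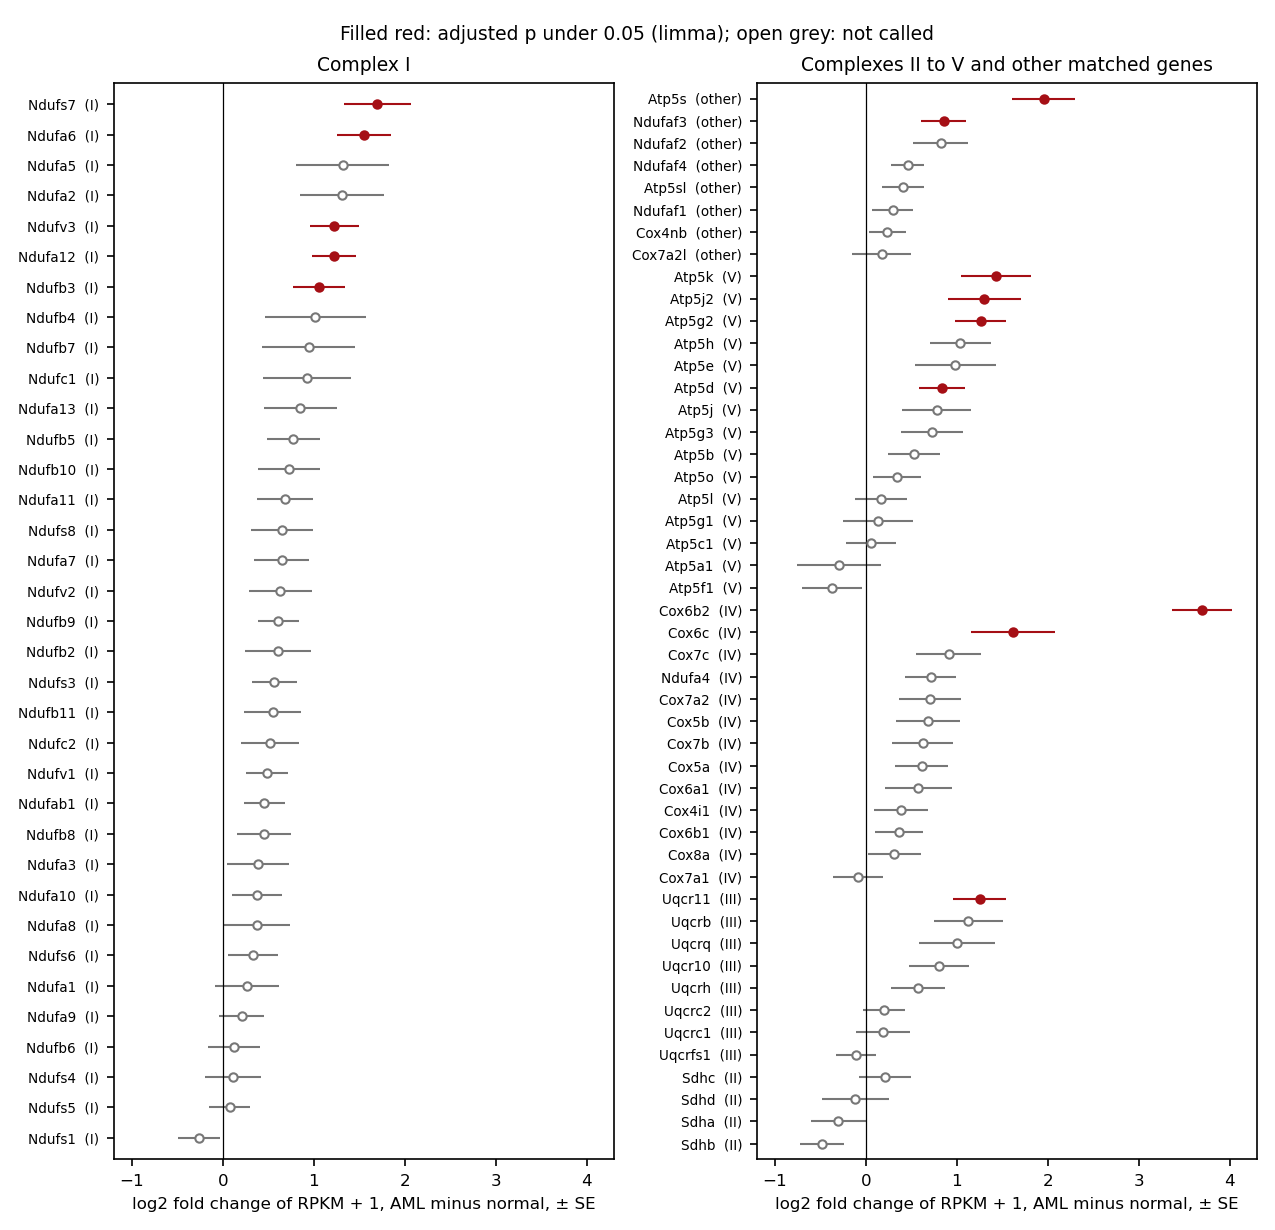
Log2 fold change of RPKM + 1, AML minus normal, with its SE from limma, for 83 of the 84 members that reached the filter (3 normal and 2 AML libraries); the complex is given in brackets, and filled red points passed the adjusted p of 0.05. Most points lie right of 0, the 14 filled ones among them, Cox6b2 lies farthest at 3.69, and 3 of the 4 Sdh genes lie left of 0.

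Complex II had none of its 4 subunits called in either direction, where 19.3% of all tested genes were called higher and 11.8% lower. None passed an unadjusted p under 0.05 (26.5% of all tested genes higher and 17.4% lower). The median log2 fold change of complex II was -0.21. It is the only complex of the chain without mitochondrially encoded subunits, and its summed RPKM was 109.8, 121 and 126 in the normal and 111 and 92.8 in the AML libraries. Sdhb, the iron-sulphur subunit, was the 1 tested member with both AML libraries below every normal library, at 41.7, 47.0 and 58.7 RPKM in the 3 normal and 33.6 and 35.6 RPKM in the 2 AML libraries (log2 fold change -0.48, SE 0.24, limma adjusted p = 0.17). This fall of the mean by a ratio of 1.42 did not pass. With S100a8 and S100a9 left out of the scaling it did, at a log2 fold change of -0.73 (limma adjusted p = 0.049). These calprotectin genes held 28.1% to 37.0% of the normal and 20.8% and 30.1% of the AML RPKM totals. Because that setting also makes the RPKM totals of the other genes equal between libraries, the call of Sdhb cannot be put down to these calprotectin genes alone. Sdha, the flavin subunit that oxidises succinate, was at 35.1, 33.8 and 21.4 RPKM in normal and 28.1 and 19.8 RPKM in AML cells, and the groups overlapped (log2 fold change -0.31, SE 0.30, limma adjusted p = 0.46). The membrane anchors Sdhc, at 21.5, 26.6 and 37.2 RPKM in normal and 33.6 and 30.9 RPKM in AML cells, and Sdhd, at 11.5, 13.3 and 9.08 RPKM in normal and 15.8 and 6.53 RPKM in AML cells, overlapped as well, with log2 fold changes of 0.21 and -0.12. The sign of Sdhc turned with S100a8 and S100a9 left out, to -0.04, and that of Sdhd without AML library 2, to 0.46. Sdha and Sdhb are given with 1 decimal and Sdhc and Sdhd with 2, a feature that goes with the sign over all tested genes. A test between complexes was not run, since subunit genes are not replicates.

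Complex III had 1 of 8 subunits called higher and none lower, against 19.3% and 11.8% of all tested genes. At an unadjusted p under 0.05, 4 were higher and none lower, against 26.5% and 17.4% of all tested genes. The median log2 fold change was 0.69, and summed RPKM was 329, 402 and 507 in the normal and 599 and 646 in the AML libraries. Uqcr11, a small subunit (chr10:79865742-79869575), stood at 5.3, 4.77 and 9.06 RPKM in the 3 normal and 15.6 and 16.4 RPKM in the 2 AML libraries. Both AML values lay above the normal range, and the ratio of means was 2.51 (log2 fold change 1.25, SE 0.29, limma adjusted p = 0.020). Its call was lost without any one library other than normal library 3 (normal library 1 0.058, normal library 2 0.077, AML library 1 0.085, AML library 2 0.13; limma). Uqcrh, the acidic hinge protein next to cytochrome c1, had the highest mean of the complex, at 111, 155 and 192 RPKM in normal and 213 and 232 RPKM in AML cells (log2 fold change 0.57, SE 0.29, limma adjusted p = 0.18). The other 6 subunits did not pass the test.

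In complex IV the nuclear subunit Cox6b2 rose more than any other member. Complex IV, which reduces oxygen to water, had 13 of 19 listed subunits above the filter. Of these 13, Cox6b2 and Cox6c were called higher and none lower, against 19.3% and 11.8% of all tested genes. At an unadjusted p under 0.05, 4 were higher and none lower, against 26.5% and 17.4% of all tested genes. The median log2 fold change was 0.63. Summed RPKM were 731, 912 and 1349 in the normal and 1601 and 1708 in the AML libraries. Cox6b2 (chr7:4703396-4704696, mm9), known as the testis isoform of a subunit that links the oxidase monomers, stood at 4.72, 5.66 and 9.48 RPKM in the 3 normal and 77.4 and 115 RPKM in the 2 AML libraries. Every AML value was above every normal value, and the group means of 6.62 ± 2.52 RPKM (SD, n = 3) and 96.1 ± 26.5 RPKM (SD, n = 2) gave a ratio of 14.5 (log2 fold change 3.69, SE 0.33, limma adjusted p = 0.00065). No other annotated gene overlaps its span in the mm9 annotation used. Its call held without each library in turn, with adjusted p-values (limma) up to 0.016 without AML library 2.

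Cox6b1, the isoform of most tissues, stood at 142, 168 and 210.3 RPKM in normal and 205 and 238 RPKM in AML cells, its groups overlapped and it did not pass (log2 fold change 0.36, SE 0.27, limma adjusted p = 0.33). As a share of the summed RPKM of both isoforms, Cox6b2 made up 3.21%, 3.27% and 4.31% in the normal and 27.4% and 32.6% in the AML libraries. This share needs no scaling between libraries and differed by 26.4 percentage points, more than the SD of either group (0.622 and 3.69 percentage points). No permutation test of 3 against 2 libraries can reach 0.05, so none is given.

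**Figure D3:**
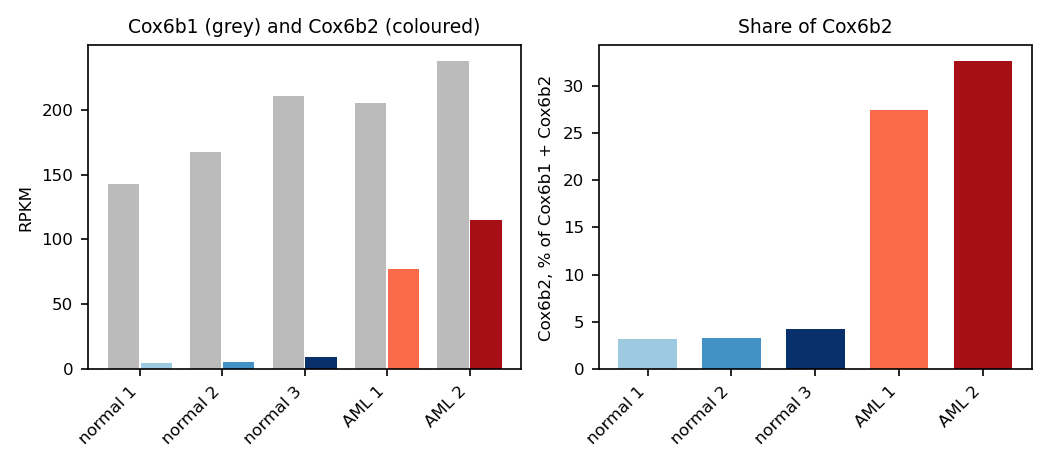
Left, RPKM of Cox6b1 (grey) and Cox6b2 (coloured) in each library, both axes from 0; right, Cox6b2 as a percentage of the summed RPKM of the 2 isoforms. The 2 AML libraries reach 27.4% and 32.6%, and the 3 normal libraries stay between 3.21% and 4.31%.

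Promoter sequences were compared to see what the members share beyond their names. RefSeq windows of 250 bases before to 50 after a gene's start (assembly GRCm38.p6) were found for 74 of the 92 members, 80 windows in all. On both strands the consensus motif of NRF1 was searched, with CCGGAAG for ETS factors such as GABP and CACGTG for the E-box, and none of these motifs contains another. The NRF1 motif was in 19 of 80 member windows (23.75%), in 10.9% of windows of tested genes and in 4.60% of all 32851 windows. The ETS letters were in 21.25%, 19.2% and 8.86%, and the E-box in 11.25%, 10.2% and 7.15% of the same sets. Some genes have overlapping windows that count the same match more than once, as the E-box of Ndufa7 and Atp5sl. Counted by gene, the NRF1 motif was in 18 of 74 members and 1035 of 8134 tested genes. By gene the ETS letters were in 17 members and 1825 tested genes, and the E-box in 7 members and 983 tested genes. Among windows of called members 3 of 14 held the NRF1 motif, 2 the ETS letters and 0 the E-box, and among those of tested members not called 16, 15 and 9 of 64 (by gene 15, 15 and 7 of 59). These are descriptions of letters, not of binding. The 250 bases before the start are shown for the isoform pair Cox6b1 and Cox6b2, of which only the second was called, for Atp5g2, which was called, and for Sdha, which was not. Cox6b1 has 1 match to the ETS letters, Cox6b2 none of the 3 motifs, Atp5g2 has 1 and Sdha 3 matches to the NRF1 motif. Matches are in capitals, and all 4 are read 5′ to 3′ on the gene's strand, which is the minus strand, at chr7:30626115-30626364, chr7:4753095-4753344, chr15:102671048-102671297 and chr13:74350241-74350490.
Cox6b1: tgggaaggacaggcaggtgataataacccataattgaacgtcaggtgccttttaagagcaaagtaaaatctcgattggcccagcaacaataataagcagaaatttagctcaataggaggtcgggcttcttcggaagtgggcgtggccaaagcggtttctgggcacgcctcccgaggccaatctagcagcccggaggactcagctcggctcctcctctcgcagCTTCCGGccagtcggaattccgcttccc
Cox6b2: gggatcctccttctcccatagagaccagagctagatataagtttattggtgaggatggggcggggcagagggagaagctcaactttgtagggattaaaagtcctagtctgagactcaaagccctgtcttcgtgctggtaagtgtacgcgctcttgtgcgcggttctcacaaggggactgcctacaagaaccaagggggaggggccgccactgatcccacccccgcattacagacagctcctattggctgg
Atp5g2: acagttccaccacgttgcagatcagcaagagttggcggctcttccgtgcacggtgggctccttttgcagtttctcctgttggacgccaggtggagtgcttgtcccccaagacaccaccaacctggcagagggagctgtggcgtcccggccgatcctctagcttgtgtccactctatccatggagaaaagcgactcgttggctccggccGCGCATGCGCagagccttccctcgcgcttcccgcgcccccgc
Sdha: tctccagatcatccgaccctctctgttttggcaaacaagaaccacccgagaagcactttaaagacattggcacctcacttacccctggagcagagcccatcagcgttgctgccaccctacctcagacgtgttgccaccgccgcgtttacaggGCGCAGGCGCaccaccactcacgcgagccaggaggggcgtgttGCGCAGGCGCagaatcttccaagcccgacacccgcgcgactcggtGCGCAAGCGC

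Other isoforms that are specific to certain tissues were at or near 0 in all libraries. Cox4i2, an isoform of lung, was at most 0.05 RPKM beside 203 ± 53.7 (SD, n = 3) and 261 ± 31.0 RPKM (SD, n = 2) of Cox4i1, the complex IV gene with the highest mean. The heart and muscle isoform Cox6a2 was at 0.50, 0.40 and 0.20 RPKM in normal and 0 and 0.10 RPKM in AML cells, under the filter in every library, beside Cox6a1 at 113, 136 and 233 RPKM in normal and 275 and 189.7 RPKM in AML cells. Cox7a1, of heart and muscle, was at 0.80, 1.0 and 2.0 RPKM in normal and 1.4 and 0.80 RPKM in AML cells and made up 1.63% ± 0.19 (SD, n = 3) and 0.921% ± 0.278 (SD, n = 2) of the Cox7a sum, with Cox7a2 at 50.8, 66.0 and 106 RPKM in normal and 124 and 109.6 RPKM in AML cells. The groups of Cox7a1 overlapped in RPKM (log2 fold change -0.09, SE 0.27, limma adjusted p = 0.83), and the sign of its log2 fold change turned without normal library 3, to 0.13, or AML library 2, to 0.12. Cox8a was at 24.7, 27.4 and 37.2 RPKM in normal and 44.6 and 30.1 RPKM in AML cells, Cox8b was listed above 0 in normal library 2 alone, at 0.07 RPKM, and Cox8c and Ndufa4l2 were listed at 0 in every library. Cox7b2 reached 0.02 RPKM in normal library 2 and was 0 in the others.

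Cox6c, a small subunit of complex IV on chromosome 15 (chr15:35855641-35868001), was the second called gene of the complex. It stood at 60.1, 90.5 and 159 RPKM in the 3 normal and 219 and 396 RPKM in the 2 AML libraries. Normal library 3 lay above normal libraries 1 and 2 and below both AML libraries, so the groups did not overlap (log2 fold change 1.62, SE 0.46, limma adjusted p = 0.037). Vps13b overlaps it on the opposite strand, and the sources used here do not say whether counting used the strand. The call was lost without any one library other than normal library 3 (normal library 1 0.081, normal library 2 0.11, AML library 1 0.068, AML library 2 0.24; limma). Ndufa4, named as a complex I subunit but found in complex IV, was at 68.5, 90.7 and 114 RPKM in normal and 157 and 136 RPKM in AML cells, without overlap, and missed the threshold (log2 fold change 0.71, limma adjusted p = 0.099).

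Complex V had 4 of 15 tested subunits called higher and none lower, against 19.3% and 11.8% of all tested genes, and Atp5l2 was listed at 0 throughout. At an unadjusted p under 0.05, 5 were higher and none lower, against 26.5% and 17.4% of all tested genes. The median log2 fold change of complex V was 0.73. Its summed RPKM was 938, 1071 and 1372 in the normal and 1773 and 1763 in the AML libraries. Of the called genes, Atp5k and Atp5j2 encode the small membrane subunits e and f, Atp5g2 encodes the c subunit of the rotating ring, and Atp5d the delta subunit of the catalytic F1 head. Atp5k (chr5:108862263-108863467) stood at 65.6, 72.5 and 139 RPKM in the 3 normal and 196 and 285 RPKM in the 2 AML libraries (log2 fold change 1.43, SE 0.38, limma adjusted p = 0.031). Atp5j2 (chr5:145944567-145952931) was at 49.0, 60.1 and 118 RPKM in normal and 151 and 202 RPKM in AML cells (log2 fold change 1.30, SE 0.40, limma adjusted p = 0.048). In both genes normal library 3 lay between the other normal libraries and the AML libraries, and the groups did not overlap.

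The F1 head, which makes ATP, had 1 of 5 subunits called higher, against 19.3% of all tested genes. Atp5d (chr10:79601377-79608563) was at 38.4, 45.2 and 57.0 RPKM in normal and 81.6 and 85.4 RPKM in AML cells (log2 fold change 0.84, SE 0.25, limma adjusted p = 0.045), and the gene Dos overlaps it on the opposite strand. The catalytic beta subunit Atp5b had the highest mean of the complex, at 176, 184 and 142 RPKM in normal and 294 and 196 RPKM in AML cells, with no overlap and a ratio of 1.47 that did not pass (log2 fold change 0.53, SE 0.28, limma adjusted p = 0.19). The gene Baz2a covers all 7119 bp of Atp5b on the same strand, at 32.3, 25.1 and 30.3 RPKM in normal and 44.7 and 29.6 RPKM in AML cells. How reads in both genes were counted is not known. Atp5a1, the alpha subunit, and Atp5f1, subunit b of the stalk, were the 2 complex V genes with values below 0. Atp5a1 stood at 106, 108 and 61.4 RPKM in normal and 117 and 44.4 RPKM in AML cells and Atp5f1 at 106, 125 and 131 RPKM in normal and 130.1 and 65.7 RPKM in AML cells, so that AML library 1 lay above or near the top of the normal range and AML library 2 below its bottom (log2 fold changes -0.29 and -0.37, limma adjusted p = 0.65 and 0.41). None of the 4 stalk subunits was called (median 0.56).

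The c subunit is made from 3 genes that encode the same mature protein with different import sequences. Atp5g2 (chr15:102493299-102501478) was at 11.2, 12.2 and 12.9 RPKM in the 3 normal and 40.2 and 22.7 RPKM in the 2 AML libraries (log2 fold change 1.26, SE 0.29, limma adjusted p = 0.017). Both AML values lay above the normal ones, which spread by 0.848 RPKM (SD, n = 3). Atp5g3, which gave most of the c subunit RPKM in every library, was at 37.2, 42.5 and 77.2 RPKM in normal and 85.7 and 80.1 RPKM in AML cells (log2 fold change 0.73, SE 0.34, limma adjusted p = 0.15), and Atp5g1 at 2.7, 2.78 and 2.68 RPKM in normal and 5.5 and 1.56 RPKM in AML cells. Shares of Atp5g2 in the summed RPKM of the 3 genes were 21.9%, 21.2% and 13.9% in normal and 30.6% and 21.75% in AML libraries, so that the groups overlapped in this measure. The call of Atp5g2 held without normal library 3 or AML library 2 and was lost when normal library 1 was left out (0.051), normal library 2 (0.063) or AML library 1 (0.088). Calls of Atp5k, Atp5j2 and Atp5d were lost without each library other than normal library 3: normal library 1 (0.080, 0.12 and 0.15), normal library 2 (0.11, 0.15 and 0.16), AML library 1 (0.075, 0.11 and 0.13) and AML library 2 (0.20, 0.26 and 0.20; limma adjusted p).

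**Figure D4:**
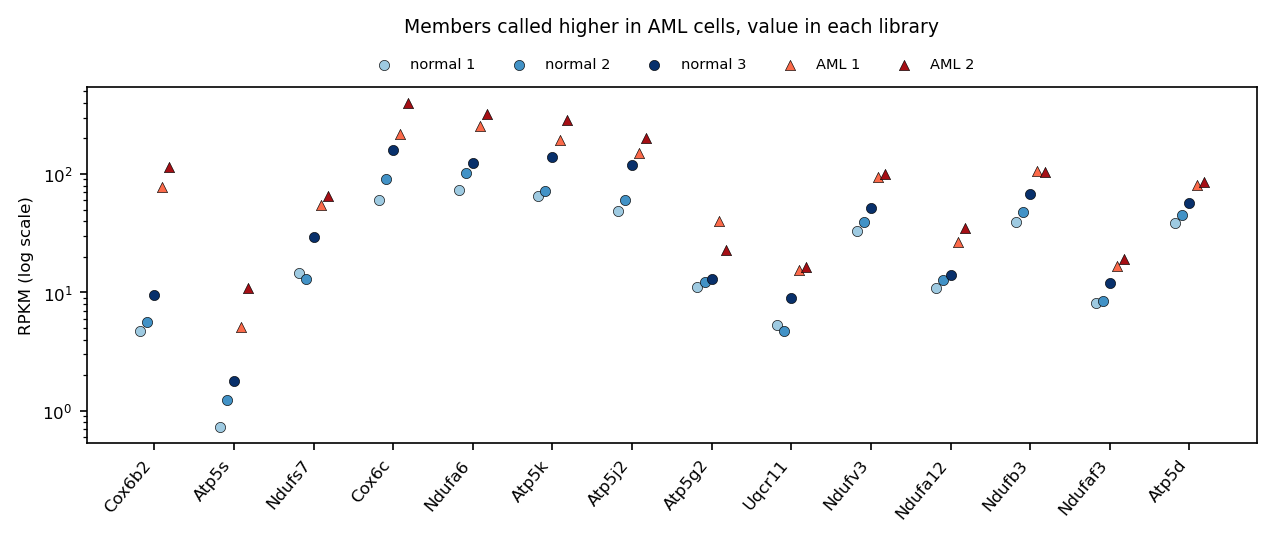
RPKM on a log axis in each of the 5 libraries for the 14 members called higher in AML cells, ordered by log2 fold change (circles normal, triangles AML). Both triangles lie above all 3 circles for each gene, and normal library 3 is the highest circle for each, from 1.78 RPKM (Atp5s) to 159 RPKM (Cox6c).

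Of the 9 matched symbols that are no subunits, 2 were called higher, against 19.3% of all tested genes. Atp5s, which was named for ATP synthase and is listed as Dmac2l in RefSeq (chr12:70825949-70845645), was low, at 0.73, 1.24 and 1.78 RPKM in the 3 normal and 5.09 and 11.0 RPKM in the 2 AML libraries. The groups did not overlap (log2 fold change 1.95, SE 0.35, limma adjusted p = 0.0077), and the call was lost without AML library 2 (0.067; limma). Ndufaf3, an assembly factor of complex I (chr9:108468197-108469673), was at 8.22, 8.47 and 12.1 RPKM in normal and 16.8 and 19.1 RPKM in AML cells (log2 fold change 0.86, SE 0.25, limma adjusted p = 0.038). Its call was lost when normal library 1 was left out (0.12), normal library 2 (0.14), AML library 1 (0.10) or AML library 2 (0.21). The other complex I assembly factors Ndufaf1, Ndufaf2 and Ndufaf4, named after their values were seen, had both AML values above all normal ones and log2 fold changes of 0.30, 0.82 and 0.46, with adjusted p-values of 0.34, 0.081 and 0.092 (limma). Cox7a2l, which takes part in joining complexes III and IV, had overlapping groups at 59.9, 83.2 and 43.5 RPKM in normal and 78.0 and 59.0 RPKM in AML cells (log2 fold change 0.17, limma adjusted p = 0.71). Atp5sl and Cox4nb, the latter a neighbour of Cox4i1, had log2 fold changes of 0.41 and 0.24 and did not pass, and the pseudogene Atp5l-ps1 was listed at 0.

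Normal library 3 lay above normal libraries 1 and 2 for 70 of the 84 tested members (83.3%), against 38.25% of all tested genes. The median log2 difference between normal library 3 and the mean of normal libraries 1 and 2 was 0.57 over the members and -0.06 over all tested genes. Taken library by library, median differences of AML library 1 were 0.83, 0.57 and 0.16 against normal libraries 1, 2 and 3, and those of AML library 2 were 0.98, 0.65 and 0.30. Both AML libraries are set against the same 3 normal libraries here.

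Gene length moved with these differences. Summed exon length had a median of 1224 bp over the 92 members and 3618.5 bp over tested genes with a length. Among all tested genes of up to 750 bp the median log2 fold change was 0.67 and 37.1% were called higher, and among those over 3000 bp the median was -0.01 with 15.1% called higher. The members had medians of 0.61 (21 genes up to 750 bp), 0.71 (27 genes up to 1500 bp), 0.53 (22 genes up to 3000 bp) and 0.35 (14 longer genes), where all tested genes had 0.67, 0.47, 0.26 and -0.01. Within the normal group, normal library 3 differed from normal libraries 1 and 2 by a median of 0.45 over all tested genes up to 750 bp and by -0.21 over those above 3000 bp. Across the 84 members the log2 fold change and log2 length had a Pearson correlation of -0.23, against -0.20 across tested genes, which is a description over genes of the same 5 libraries.

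With the length trend of each library removed, the median of the members was 0.26 and that of all tested genes 0.12. Then 71.4% of the members and 56.2% of all tested genes had a value above 0. In that fit 9 members were called higher (10.7%, background 19.7%) and none lower (background 12.7%). Cox6b2, Atp5s, Ndufa6, Ndufa12, Ndufs7, Ndufv3, Atp5k, Atp5j2 and Cox6c kept their calls, and Atp5g2, Uqcr11, Ndufb3, Ndufaf3 and Atp5d lost theirs (adjusted p = 0.18, 0.053, 0.093, 0.10 and 0.054; limma). The log2 fold change of Cox6b2 was then 3.09. Taking the median transcript length of a gene in place of its summed exons left 13 of the 14 calls (15.5%, background 20.0%), with Atp5d lost (0.059), and a median of 0.37. Without normal library 3 and with the length trend removed, 26 members were called higher (31.0%, background 26.5%) and 1, Cox7a1, lower (1.19%, background 20.7%). In that setting 69.0% of the members had a value above 0 (54.6% of all tested genes). With the length trend removed the medians of complexes I to V were 0.39, -0.37, 0.22, 0.07 and 0.58. What gives rise to the length trend was not tested.

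**Figure D5:**
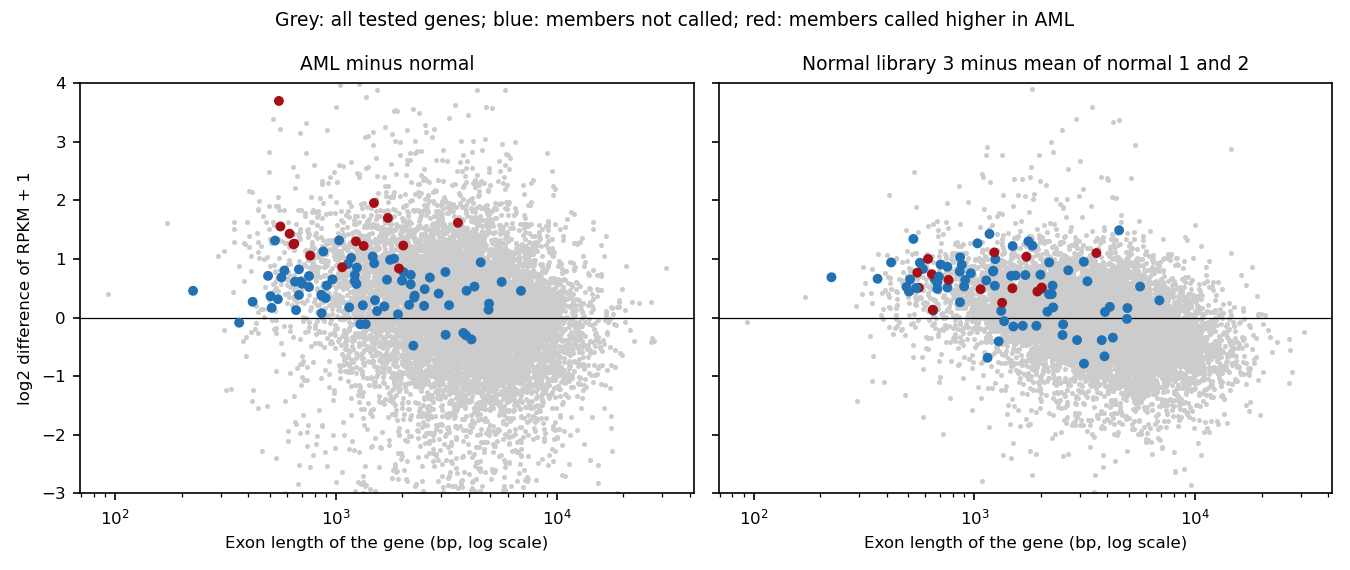
Log2 difference of RPKM + 1 against summed exon length (log axis) for all tested genes (grey) and the 84 members (blue, or red where called higher); left AML minus normal, right normal library 3 minus the mean of normal libraries 1 and 2, with the vertical axis limited to -3 to 4. In both panels most members lie above 0 and among the shorter genes, with medians of 0.59 on the left and 0.57 on the right.

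Genes that work with the chain but were not matched by symbol were counted in lists, beside the 19.3% called higher among all tested genes. Of 5 further chain genes 2 were called higher (40.0%), and 0 without normal library 2 (background 9.61%). Cyc1, the cytochrome c1 subunit of complex III, was at 26.1, 28.5 and 33.7 RPKM in normal and 64.1 and 73.2 RPKM in AML cells (log2 fold change 1.20, SE 0.23, limma adjusted p = 0.010), and Atpif1, which blocks the reverse reaction of the ATP synthase, at 60.3, 77.0 and 106 RPKM in normal and 143 and 224 RPKM in AML cells (log2 fold change 1.17, SE 0.33, limma adjusted p = 0.037). Cytochrome c itself (Cycs) was at 6.19, 7.8 and 9.78 RPKM in normal and 10.5 and 18.8 RPKM in AML cells and did not pass (log2 fold change 0.78, limma adjusted p = 0.10). Of 25 tested assembly factors 4 were called higher (16%) and none lower (median 0.40), with the largest values for Cox18, which inserts Cox2 into the membrane (log2 fold change 1.34, SE 0.27, limma adjusted p = 0.011), and Sdhaf1, a complex II factor (log2 fold change 1.16, SE 0.29, limma adjusted p = 0.024). Without AML library 2 the adjusted p was 0.086 for Cyc1, 0.24 for Atpif1 and 0.17 for Sdhaf1, and without normal library 2 it was 0.054, 0.12 and 0.087 (limma). Atpif1 and Sdhaf1 also lost their calls without normal library 1 (0.10 and 0.073), and Atpif1 without AML library 1 (0.064). Cox18 lost its call without normal library 2 (0.053) or AML library 1 (0.068).

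Ubiquinone synthesis, which makes the carrier between complexes I or II and III, had 6 of 9 genes called higher and none lower, with a median of 0.91. This is 66.7%, and the number called changed with the libraries used. For all 9 genes both AML libraries lay above every normal library (34.8% of all tested genes). Pdss2 alone stayed called (11.1%) without normal library 1 (background 11.4%) or normal library 2 (background 9.61%). There were 3 calls (33.3%, background 12.5%) with S100a8 and S100a9 left out of the scaling. With the length trend removed or without normal library 3, 6 were called (66.7%, background 19.7% and 27.3%). With AML library 1 or 2 left out, log2 fold changes were 1.33 and 1.57 for Pdss2 and 1.59 and 0.89 for Coq6. Pdss2, a subunit of the enzyme that builds the isoprenoid tail, stood at 1.09, 1.61 and 1.37 RPKM in the 3 normal and 5.99 and 4.89 RPKM in the 2 AML libraries (log2 fold change 1.45, SE 0.21, limma adjusted p = 0.0037). Its groups did not overlap, and its call held without each library in turn (adjusted p up to 0.040 without AML library 1; limma). Coq6, a ring hydroxylase, was at 2.38, 3.12 and 3.72 RPKM in normal and 6.48 and 11.2 RPKM in AML cells (log2 fold change 1.24, SE 0.29, limma adjusted p = 0.019) and lost its call when normal library 1 was left out (0.062), normal library 2 (0.066) or AML library 2 (0.14).

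The citrate cycle had 2 of 13 genes called higher (15.4%) and none lower (median 0.46), among them Suclg2, a succinate-CoA ligase subunit (log2 fold change 0.89, SE 0.25, limma adjusted p = 0.033). The call of Suclg2 was lost when normal library 1 was left out (0.087), normal library 2 (0.083), AML library 1 (0.17) or AML library 2 (0.072). Among 13 tested genes of mitochondrial transcription and its regulators 4 were called higher (30.8%) and none lower (median 0.65). There was 1 without normal library 1 or 2 (7.69%, background 11.4% and 9.61%). Without normal library 3 there were 9 higher (69.2%, background 27.3%) and 1 lower (background 21.2%). Polrmt, the mitochondrial RNA polymerase, was at 1.88, 1.38 and 2.31 RPKM in normal and 4.8 and 5.95 RPKM in AML cells (log2 fold change 1.17, SE 0.23, limma adjusted p = 0.011) and Mterf, a transcription termination factor, at 3.4, 3.75 and 4.86 RPKM in normal and 6.8 and 14.8 RPKM in AML cells (log2 fold change 1.16, SE 0.34, limma adjusted p = 0.040). The call of Polrmt was lost when normal library 2 was left out (0.056) or AML library 2 (0.096), and leaving out AML library 2 (0.23), normal library 1 (0.11) or normal library 2 (0.12) ended that of Mterf. Nrf1 and Gabpa, transcription factors known to drive respiratory chain genes, had log2 fold changes of 0.02 and -0.59 and were not called (limma adjusted p = 0.97 and 0.27), and the coactivator Ppargc1a was at most 0.01 RPKM. Other regulators of the list went up: Pprc1 was called higher (log2 fold change 0.92, SE 0.24, limma adjusted p = 0.026). That call was lost without normal library 1 (0.083) or normal library 2 (0.11; limma). Ppargc1b, under the filter, was at 0.20, 0.29 and 0.27 RPKM in normal and 0.94 and 0.66 RPKM in AML cells. Esrra was not called (log2 fold change 0.65, limma adjusted p = 0.23).

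Of 6 mitochondrial carriers and pores 1 was called lower and 1 higher (median -0.07). Slc25a4, an isoform of the ADP/ATP carrier, fell from 9.9, 13.2 and 15.9 RPKM in normal to 2.4 and 2.2 RPKM in AML libraries (log2 fold change -2.06, SE 0.26, limma adjusted p = 0.0020), and its call held without each library in turn. Slc25a3, the phosphate carrier, was at 49.8, 58.6 and 72.2 RPKM in normal and 97.5 and 121 RPKM in AML cells (log2 fold change 0.86, SE 0.26, limma adjusted p = 0.046) and lost its call when normal library 1 was left out (0.15), normal library 2 (0.16), AML library 1 (0.096) or AML library 2 (0.25). The ADP/ATP carrier isoform Slc25a5 did not pass, at 75.1, 85.9 and 58.3 RPKM in normal and 72.2 and 54.2 RPKM in AML cells. Glycolysis had 2 of 15 genes called higher (13.3%), Gpi1 (log2 fold change 0.99, SE 0.25, limma adjusted p = 0.026) and Pfkl (log2 fold change 0.84, SE 0.25, limma adjusted p = 0.043), and none lower, with a median of 0.16. Both calls were lost when normal library 1 was left out (0.095 and 0.13), normal library 2 (0.14 and 0.16), AML library 1 (0.10 and 0.18) or AML library 2 (0.12 and 0.14; limma).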

How the data were processed

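RNA from 5 libraries of sorted cells was compared, 3 normal and 2 AML, in 1 table of 34240 features. The deposited values were taken as RPKM: multiplied by exon length in kb they summed to 1058096 to 1123411 in each library, and no source names the unit. Reads were set on mm9, per the submitters' processing notes. The sources used here name no aligner, counter, annotation or strand setting. The authors' table gives some genes with 1 decimal and others with 2: of the tested genes, 4749 had 1 decimal (11.9% with a log2 fold change above 0) and 5417 had 2 (94.5%). Of the members 12 had 1 decimal, 79 had 2 and 1 had none. The tested members below 0 were Atp5a1, Atp5f1, Cox7a1, Ndufs1, Sdha, Sdhb and Uqcrfs1 with 1 decimal and Sdhd with 2. Rounding all values to 1 decimal was an alternative, and 13 members were then called higher (15.5%, background 19.1%), with Atp5j2 lost. It cannot show why the decimals go with the direction of change.

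Genes with at least 1 RPKM in 2 libraries were tested with limma 3.58.1 in R 4.3.3 on log2(RPKM + 1), with a variance trend and robust fitting, AML against normal, and p-values were adjusted over all 10166 tested genes by Benjamini-Hochberg. Fold changes on this scale understate those of low genes, and ratios of means are of RPKM. The script was tested on simulated data. Lengths and positions came from GENCODE M1 (mm9), promoters from RefSeq GRCm38.p6. The length trend was removed in each library by a lowess curve (span 0.3). Named were, per complex, up to 4 called members in each direction with the largest changes, the member with the highest mean, all of complex II, the complex I core, isoform groups, and up to 2 called genes in each direction of each other list. Members and lists were chosen with earlier results of these data known. Alternatives were other scalings, filters, pseudocounts and variance settings, rounding, length trend removal and leaving out libraries. Values of some genes that the rule names are not reported here.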

Additional observations from a re-analysis of the deposited data

How the results depend on the processing

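No paired analysis was run, since the labels do not pair normal with AML libraries. All 14 calls remained with a pseudocount of 0.1 or a filter at 5 RPKM. Members called higher were 8 with S100a8 and S100a9 left out of the scaling (1 lower, in complex II), 8 with no filter and 9 with the length trend removed. Without 1 library at a time they were 2 to 47, in complex I 0 to 22, complex III 0 to 5, complex IV 1 to 9 and complex V 0 to 8. Of all tested genes 11.4%, 9.61% and 27.3% were called higher without normal library 1, 2 and 3. Complex IV had 1 with upper quartile scaling, S100a8 and S100a9 left out, or no filter. Complex V had 2 with upper quartile scaling, quantile normalization or the length trend removed, and 1 with S100a8 and S100a9 left out or no filter. Complex III had 0 with the length trend removed. Of all tested genes 16.3% were called higher with upper quartile scaling, 16.7% with quantile normalization and 12.5% with S100a8 and S100a9 left out. This share was 10.2% with no filter and 19.7% with the length trend removed. Without both normal libraries 1 and 2 there were 2 members, 0 of complexes I, III and V and 1 of complex IV, with a median of 0.17; with the length trend removed the median was 0.26. With the length trend removed and without normal library 3 there were 26 higher and 1 lower (background 26.5% and 20.7%). The 1 lower was in complex IV, and 12 of the higher ones were in complex I, 3 in complex III and 7 in complex V. This setting, and the transcript lengths, were chosen after seeing the data.

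The Cox7a1 share differed by -1.50 percentage points with the length trend removed, -1.72 also without normal library 3 and -1.25 by transcript length. That of Atp5g3 ran from -11.5 to 0.0618 without 1 library, turning without AML library 1, and turned to 3.57 with length removed and no normal library 3, where Atp5g2 turned to -2.66. Log2 fold changes turned sign without both normal libraries 1 and 2 for Ndufb7 (-0.051), Sdha (0.14), Sdhc (-0.20), Sdhd (0.16), Cox4i1 (-0.011), Cox6a1 (-0.028) and Cox8a (-0.023). With S100a8 and S100a9 left out they turned for Sdhc (-0.037), Cox7a2l (-0.079) and Atp5g1 (-0.046). With the length trend removed they turned for Cox4i1 (-0.16), Cox7a2l (-0.20), Cox6b1 (-0.27) and Cox8a (-0.30), and also without normal library 3 to -0.16, -0.57, -0.35 and -0.35. By transcript length Atp5g1 turned (-0.081). Without 1 library at a time Cox7a2l ran from -0.056 (no normal library 3) to 0.40, also turning without AML library 1 (-0.026); Atp5g1 from -0.54 (no AML library 1) to 0.81, Sdhd from -0.69 to 0.46 (no AML library 2) and Cox7a1 from -0.30 to 0.13 (no normal library 3), also turning without AML library 2 (0.12). The cause was not tested. A lone AML library was assumed to vary like the other group.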
